A study of Mus musculus with 5 samples.

Results

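Neurexins and neuroligins are cell adhesion proteins that meet across the synaptic cleft. Neurexins sit mainly in the presynaptic membrane, where they help place calcium channels and the release machinery. Neuroligins sit mainly in the postsynaptic membrane, bind neurexins from across the cleft and gather receptors and scaffold proteins beneath it. Neuroligin 1, from Nlgn1, is found mostly at excitatory synapses, neuroligin 2, from Nlgn2, mostly at inhibitory synapses, and neuroligin 3, from Nlgn3, at both kinds and also in glia. Each neurexin gene makes long alpha and short beta forms from separate promoters, with extensive alternative splicing. In the paraventricular nucleus of the hypothalamus (PVH), oxytocin (OT) and vasopressin neurons receive many inhibitory and excitatory synapses.

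The genes described are Nrxn2, Nrxn3, Nlgn1, Nlgn2 and Nlgn3, taken by their symbols from the feature lists of all libraries. They are 5 of 31053 gene features, and all 5 were detected in every library. The values are counts of unique molecular identifiers (UMIs, 1 per captured RNA molecule) from single-nucleus RNA sequencing. They were summed over the nuclei of a cell class in a library and divided by all UMIs of that class and library, and are given as counts per 1000000 UMIs (CPM). Because the counts are per gene, alpha and beta neurexin forms and splice variants were not told apart. Levels of different genes were not ranked against each other, since long genes yield more nuclear reads. A lower level in a class of summed nuclei can come from fewer nuclei of a type or from less RNA per nucleus, and these cannot be told apart in the sums.

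In the mm10 build with GENCODE vM21, Nrxn2 (ENSMUSG00000033768) lies on the plus strand of chromosome 19 from 6418731 to 6544169 and has 18 annotated transcripts. Nrxn3 (ENSMUSG00000066392) spans 1612 kb of chromosome 12, from 88722876 to 90334935 on the plus strand. Nlgn1 (ENSMUSG00000063887) spans 906.2 kb of chromosome 3, from 25426215 to 26332460 on the minus strand. Nlgn2 (ENSMUSG00000051790) and Nlgn3 (ENSMUSG00000031302) are far shorter. Nlgn2 covers 14.7 kb of chromosome 11, from 69823122 to 69837784 on the minus strand, and Nlgn3 covers 26.8 kb of chromosome X, from 101299168 to 101325963 on the plus strand.

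The study measured PVH nuclei after prenatal valproic acid (VPA), an anticonvulsant used in rodents to model social deficits, and after stimulation of OT neurons in newborns. All mice were males on a C57BL6 background that carried OT-Cre, which drives Cre in OT neurons. In the first experiment they also carried Ai9, a tdTomato reporter, were sampled at 5 weeks of age, and came from mothers given saline (10 mL/kg) or VPA (500 mg/kg) on gestation day 12.5. In the second experiment they carried OT-Cre and stop-hM3, a Cre-dependent receptor that clozapine N-oxide (CNO) activates, and all had been exposed to VPA before birth. On postnatal day 2 these mice were given saline (called hM3 control here) or CNO, and their brains were taken at the age of 5 to 7 weeks. They had also received an AAV in the PVH and supraoptic regions, whose content and timing are not given in the sources used here. The saline, VPA and hM3 control groups have 1 library each and the CNO group has 2, each made from the pooled nuclei of 2 to 4 mice. Replicates are therefore libraries and not animals, and the CNO pair is the only repeat of a group. Nuclei were sorted on DAPI with a gate that favoured large nuclei, so shares are of sorted nuclei.

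The libraries held 52506958 to 76243280 UMIs, and 4115 to 9823 nuclei were used per library. Median depth ranged from 3722.5 UMIs per nucleus in CNO library 2 to 11913 in CNO library 1. Pairs of libraries shared 4 to 23 barcodes, at most 0.374% of the smaller library. Clusters gave 18923 neuron-like, 4794 astrocyte-like, 2535 oligodendrocyte-like, 709 oligodendrocyte progenitor-like and 385 microglia-like nuclei. Neurons were split into 8543 nuclei in 19 sub-clusters rich in the GABA markers Gad1, Gad2 and Slc32a1, and 7469 nuclei in 21 sub-clusters rich in Slc17a6, the vesicular glutamate transporter of hypothalamic neurons. The other 2911 nuclei, in 11 sub-clusters, met the rule of neither type and stayed in the sums over all neurons. The Slc17a6-rich neurons included 804 OT-like nuclei, 3588 other nuclei rich in Sim1, a transcription factor of the PVH, and 1064 thalamus-like nuclei. The latter were rich in several thalamus-type markers, Tcf7l2 (760 and 796 CPM) among them. Tcf7l2 was also high in some other Slc17a6-rich sub-clusters, with the leading genes Gm19303 (619 CPM), 1700023F02Rik (435 CPM) and Nox4 (429 CPM). The oxytocin gene reached 195 and 836 CPM in the 2 OT-like sub-clusters. CNO library 2 stood apart in its make-up, with 41.0% neuron-like nuclei against 59.9% to 75.7% in the other libraries, and 18.5% of its neurons were GABA-rich against 38.6% to 54.3%. The neurons of neither type were 41.2% of its neurons against 6.83% to 19.7%. The members and their binding partners were kept out of the genes used for clustering.

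Nrxn3 separated GABA-rich from Slc17a6-rich neurons. In GABA-rich neurons its level was 10211 CPM with saline, 10344 with VPA, 9742 in the hM3 control, 9088 in CNO library 1 and 8328 in CNO library 2. In Slc17a6-rich neurons of the same libraries it was 2045, 2117, 2381, 2238 and 2398 CPM. Every GABA-rich value lay above every Slc17a6-rich value, and the groups did not overlap. The level was 4.99, 4.89, 4.09, 4.06 and 3.47 times higher in GABA-rich neurons in that order of libraries. In edgeR's quasi-likelihood test with library as a block, the log2 difference was 2.02 (Benjamini-Hochberg adjusted p = 7.5e-07), above that of 99.6% of the 16702 genes tested. Of all genes tested, 24.2% passed this test, and of the 5 members Nrxn3 and Nlgn1 passed.

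Nlgn1 was also higher in GABA-rich neurons, by a small amount. It read 4564, 4905, 4453, 3830 and 3875 CPM in GABA-rich neurons of the saline, VPA, hM3 control, CNO 1 and CNO 2 libraries, and 3551, 4134, 3865, 3389 and 3020 CPM in Slc17a6-rich neurons. It was higher in GABA-rich neurons within each library, by 1.13 to 1.29 times, but the ranges over libraries overlapped. The log2 difference was 0.19 (edgeR, adjusted p = 0.016). This call did not hold without the saline library (0.17, edgeR adjusted p = 0.10) or without CNO library 2 (0.18, edgeR adjusted p = 0.052).

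The other members differed little between the neuron types. Nlgn2, the neuroligin of inhibitory synapses, read 33.5, 41.2, 41.5, 42.7 and 32.5 CPM in GABA-rich neurons and 34.6, 40.7, 36.5, 35.4 and 32.1 CPM in Slc17a6-rich neurons, in the same order. Nlgn3 read 30.4 to 35.7 CPM in GABA-rich and 25.7 to 33.1 CPM in Slc17a6-rich neurons, and Nrxn2 read 148 to 208 CPM and 134 to 187 CPM. For all 3 genes the ranges overlapped. Their edgeR log2 differences were 0.02 for Nlgn2 (adjusted p = 0.85), 0.02 for Nlgn3 (adjusted p = 0.83) and 0.01 for Nrxn2 (adjusted p = 0.97). The neuron types themselves were defined by GABA and glutamate markers, so the test describes how the members follow that division and not a treatment.

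The genes whose products bind or anchor neurexins and neuroligins divided between the neuron types as well. The list holds 45 such genes, chosen with earlier results of these data known, and 42 were tested. Of these, 7 were higher in GABA-rich neurons and 17 lower in the same edgeR fit, beside 24.2% of all genes in either direction, and 3 and 8 were without library as a block. The median log2 difference of the list was -0.12 and that of all genes 0.01.

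The secreted partners and trans-synaptic bridges made up 8 of the 17 lower genes, out of 10 tested, with 1 higher and a median of -0.87. Car10, a carbonic anhydrase-related protein that pairs with neurexins inside the secretory pathway, read 608 to 945 CPM in GABA-rich and 1303 to 1682 CPM in Slc17a6-rich neurons, ranges that did not overlap (log2 difference -1.08, edgeR adjusted p = 7.2e-06). Nxph1, a neurexophilin that binds alpha neurexins, read 498 to 714 and 811 to 1150 CPM (-0.84, edgeR adjusted p = 7.4e-04). Cerebellins link neurexins to postsynaptic receptors, and 3 of them were lower. The differences were -2.39 for Cbln1 (edgeR, adjusted p = 5.3e-05), -1.17 for Cbln2 (adjusted p = 1.9e-05) and -0.78 for Cbln4 (adjusted p = 6.3e-04), at levels below 10 CPM. Igsf21, a neurexin ligand of inhibitory synapses, was lower too (-0.91, edgeR adjusted p = 1.2e-05). For Nxph4 (-3.61, edgeR adjusted p = 0.0011) only 12 UMIs were counted in GABA-rich neurons against 166 in Slc17a6-rich ones. The neurexophilin Nxph2 went the other way, at 2.13 to 4.30 CPM in GABA-rich and 0.490 to 1.57 CPM in Slc17a6-rich neurons (1.88, edgeR adjusted p = 0.0033).

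Among the neuroligin inhibitors, Mdga1, which masks the neurexin binding face of neuroligins, was lower in GABA-rich neurons. It read 10.6, 9.19, 10.7, 14.9 and 11.02 CPM in the saline, VPA, hM3 control, CNO 1 and CNO 2 libraries, against 36.1, 48.9, 40.8, 29.8 and 26.0 CPM in Slc17a6-rich neurons. The groups did not overlap (log2 difference -1.82, edgeR adjusted p = 7.4e-05). The other inhibitor, Mdga2, did not pass (0.09, edgeR adjusted p = 0.17). It read 3185 to 3923 CPM in GABA-rich and 3006 to 3477 CPM in Slc17a6-rich neurons. Of 13 postsynaptic neurexin ligands and neighbours 2 were higher and 3 lower (median -0.07), and of 14 intracellular partners and scaffolds 4 were higher and 4 lower (median -0.06). The differences of the higher ones were small. They included the scaffold Dlg2 (0.52, edgeR adjusted p = 8.7e-05), the calsyntenin Clstn2 (0.51, edgeR adjusted p = 0.0033), Lin7a (0.31), Lhfpl4 (0.18), whose product joins neuroligin 2 to GABA receptors, and Dlg1 (0.15).

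**Figure D1:**
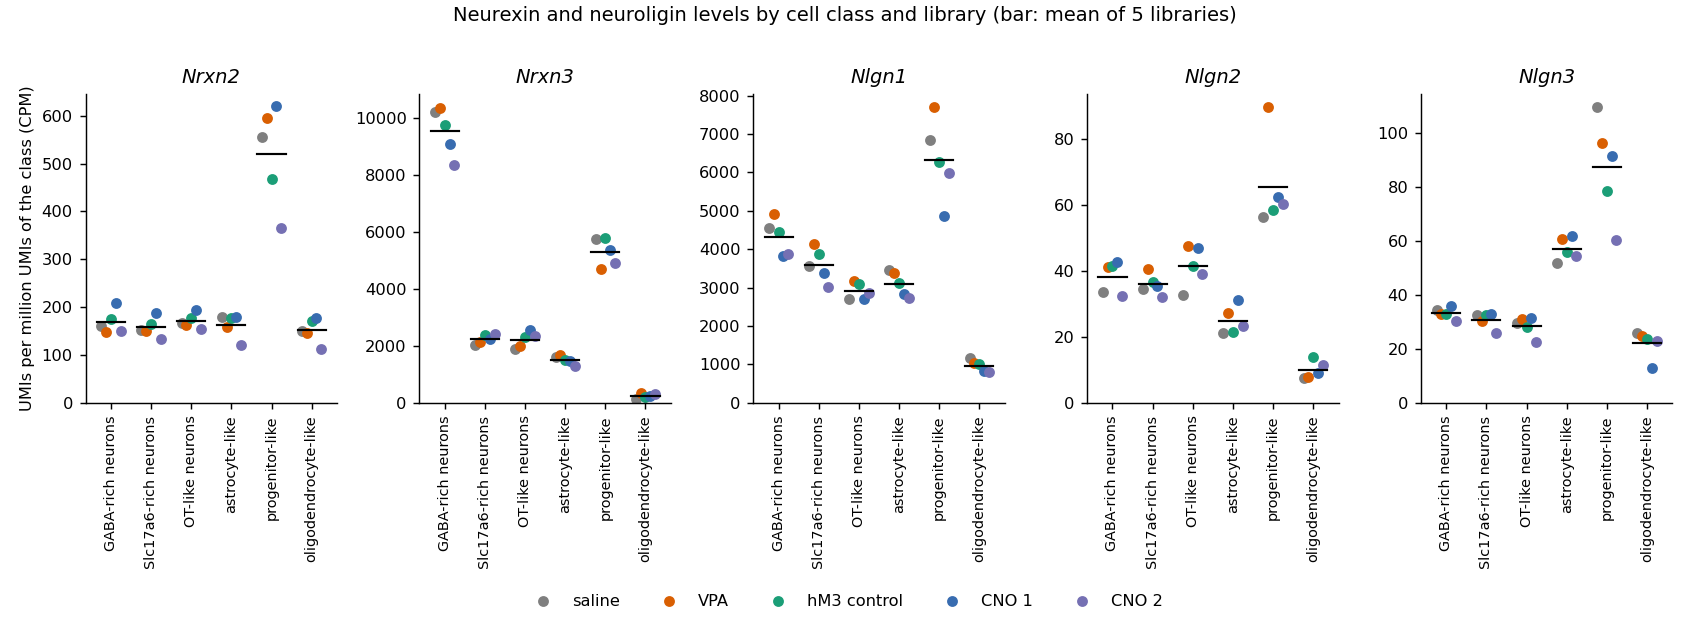
Level of each gene (CPM, linear axis from 0) in 6 cell classes, with a point for each of the 5 libraries and a bar at their mean. Nrxn3 in GABA-rich neurons lies at 8328 to 10344 CPM against 2045 to 2398 CPM in Slc17a6-rich neurons, and the progenitor-like class has the highest mean of Nrxn2, Nlgn1, Nlgn2 and Nlgn3.

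Across the cell classes with at least 20 nuclei in every library, Nrxn3 was highest in GABA-rich neurons at 9542 ± 838 CPM (SD, n = 5 libraries), followed by oligodendrocyte progenitor-like nuclei at 5299 ± 489 CPM. Other Sim1-rich neurons had 2615 ± 212, OT-like neurons 2216 ± 269, thalamus-like neurons 1958 ± 583, other Slc17a6-rich neurons 1749 ± 220 and astrocyte-like nuclei 1507 ± 152 CPM. Oligodendrocyte-like nuclei were lowest at 249 ± 82 CPM. The GABA-rich and progenitor-like ranges did not overlap each other or those of the classes named after them, while each class from other Sim1-rich neurons to astrocytes overlapped its neighbour. Microglia-like nuclei read 230 to 408 CPM in 4 libraries and 3758 CPM in CNO library 1, which held 25 of them.

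Nrxn2 was highest in progenitor-like nuclei, at 521 ± 105 CPM (SD, n = 5 libraries), and this range lay above those of all neuron groups, astrocytes, oligodendrocytes and microglia. Below it the order was flat. Other Sim1-rich neurons (172 ± 18 CPM), OT-like neurons (171 ± 15), GABA-rich neurons (168 ± 24), astrocyte-like nuclei (163 ± 26), other Slc17a6-rich neurons (162 ± 35) and oligodendrocyte-like nuclei (152 ± 26) all overlapped. Thalamus-like neurons had 121 ± 12 CPM, a range that overlapped those of astrocytes, oligodendrocytes and other Slc17a6-rich neurons but not those of the other neuron groups. In microglia-like nuclei 23 UMIs of Nrxn2 were counted over all libraries.

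The neuroligins shared the high progenitor level and differed in the classes after it. Nlgn1 read 6330 ± 1053 CPM in progenitor-like nuclei, 4325 ± 463 in GABA-rich, 3910 ± 355 in other Sim1-rich, 3848 ± 393 in other Slc17a6-rich and 3171 ± 535 in thalamus-like neurons (SD, n = 5 libraries each). Astrocyte-like nuclei followed at 3105 ± 329 and OT-like neurons at 2904 ± 222 CPM, each overlapping its neighbours, and oligodendrocyte-like nuclei had 969 ± 144 CPM, below all of these. Nlgn1 in OT-like neurons ranged from 2691 to 3170 CPM, entirely below its range in GABA-rich neurons (3830 to 4905 CPM).

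Among the same classes, Nlgn2 read 65.4 ± 14 CPM in progenitor-like nuclei and then 41.5 ± 6.1 in OT-like, 39.0 ± 4.7 in other Sim1-rich, 38.3 ± 4.9 in GABA-rich and 37.1 ± 4.0 in other Slc17a6-rich neurons, which overlapped one another. Thalamus-like neurons (25.8 ± 2.0 CPM) and astrocyte-like nuclei (24.9 ± 4.3) came next, and the thalamus-like range of 22.9 to 27.9 CPM lay below those of the other neuron groups. Oligodendrocyte-like nuclei had 9.95 ± 2.7 CPM. In microglia-like nuclei 7 UMIs of Nlgn2 and 7 of Nlgn3 were counted in all.

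Nlgn3 had a different order, with astrocytes and progenitors above neurons, and oligodendrocytes and microglia not. Progenitor-like nuclei had 87.3 ± 19 CPM and astrocyte-like nuclei 56.9 ± 4.2 CPM, and these ranges overlapped. The neuron groups had means from 28.5 CPM in OT-like to 33.3 CPM in GABA-rich neurons, and every one of their values lay below the lowest astrocyte value of 51.7 CPM. Oligodendrocyte-like nuclei had 22.0 ± 5.3 CPM, a range that overlapped those of OT-like and thalamus-like neurons.

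Each glial class was set against neurons in 1 edgeR quasi-likelihood fit over 12159 genes with library as a block. In astrocyte-like nuclei 72.2% of genes passed and 3 members did. Nlgn3 was higher by 0.78 on the log2 scale (edgeR, adjusted p = 5.5e-07), Nlgn2 lower with a difference of -0.65 (adjusted p = 7.3e-05) and Nrxn3 lower with -1.96 (adjusted p = 3.4e-04). Nlgn1 (-0.40, edgeR adjusted p = 0.20) and Nrxn2 (-0.05, edgeR adjusted p = 0.73) did not pass. The 2 neuroligins thus differed in opposite directions between neurons and astrocytes.

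In progenitor-like nuclei 40.2% of genes passed, and of the members Nrxn2, Nlgn3, Nlgn2 and Nlgn1 were higher than in neurons. The log2 differences were 1.72 for Nrxn2 (edgeR, adjusted p = 5.9e-11), 1.52 for Nlgn3 (adjusted p = 3.1e-10), 0.86 for Nlgn2 (adjusted p = 2.3e-05) and 0.74 for Nlgn1 (adjusted p = 0.039). Nrxn3 differed by -0.03 (edgeR, adjusted p = 0.97). The Nlgn1 call was lost without the saline, VPA, hM3 control or CNO 2 library (0.60 to 0.70, edgeR adjusted p = 0.083 to 0.14). The summed level of 6 neuron markers in progenitor-like nuclei was 884, 660, 1770, 1574 and 1550 CPM in the saline, VPA, hM3 control, CNO 1 and CNO 2 libraries, against 3711 to 3925 CPM in neurons. All 6 markers were detected there, and their part in the member levels was not tested.

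Mature oligodendrocyte-like nuclei had the reverse picture for most members, with 70.7% of genes past the test. Nrxn3 was lower with a log2 difference of -4.46 (edgeR, adjusted p = 9.6e-09), Nlgn1 with -1.94 (adjusted p = 1.3e-06), Nlgn2 with -1.81 (adjusted p = 1.1e-09) and Nlgn3 with -0.54 (adjusted p = 0.0022). The Nlgn3 call did not hold without CNO library 1 (-0.16, edgeR adjusted p = 0.34). Nrxn2 stayed near its neuron level, at -0.02 (edgeR, adjusted p = 0.92). In microglia-like nuclei, where 58.4% of genes passed, all 5 members were lower, from -2.46 for Nlgn3 (edgeR, adjusted p = 8.0e-06) to -3.71 for Nlgn1 (adjusted p = 2.4e-10).

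In the fit of glia against neurons 37 partner genes were tested. Progenitor-like nuclei had 6 higher and 7 lower (40.2% of all genes passed), astrocyte-like nuclei 5 and 25 (72.2% of all genes), oligodendrocyte-like nuclei 4 and 27 (70.7%), and microglia-like nuclei 1 and 29 (58.4%). Of 6 secreted partners and bridges tested, 4 were higher in progenitors and 1 lower. C1ql1, a C1q-like secreted protein, read 48.8 to 81.3 CPM there against 0.078 to 0.332 CPM in neurons (edgeR adjusted p = 8.5e-14). Nxph1 read 2106 to 3553 CPM against 705 to 883 CPM (log2 difference 1.78, edgeR adjusted p = 6.5e-08), and Igsf21 57.7 to 132 CPM against 29.8 to 37.4 CPM (1.66, edgeR adjusted p = 4.4e-08). C1ql3 (1.56), the neurexin scaffold Cask (1.14) and the splicing factor Khdrbs1 (0.36) were the other higher genes. Those lower were led by the latrophilin Adgrl2 (-1.96, edgeR adjusted p = 9.3e-09), Clstn2 (-1.15) and Clstn3 (-1.12).

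Shares of nuclei with at least 1 UMI were taken after every nucleus was thinned to 2000 UMIs. Thinning left out 120 of 18923 neuron-like, 1482 of 4794 astrocyte-like, 722 of 2535 oligodendrocyte-like and 105 of 709 progenitor-like nuclei. Nrxn3 was found in 99.1% ± 0.70 of GABA-rich and 77.4% ± 2.1 of Slc17a6-rich neurons (SD, n = 5 libraries), and in 33.6% ± 5.0 of oligodendrocyte-like nuclei. Its shares did not follow the CPM order in every class. Astrocyte-like nuclei had 83.9% ± 2.0, above Slc17a6-rich neurons, and progenitor-like nuclei had 99.3% ± 0.45, near GABA-rich neurons. Nrxn2 was found in 65.1% ± 7.4 of progenitor-like nuclei, 28.1% ± 3.3 of neurons and 24.3% ± 5.0 of oligodendrocyte-like nuclei. Nlgn1 was found in 97.8% ± 0.53 of neurons and 72.5% ± 7.3 of oligodendrocyte-like nuclei. Nlgn2 and Nlgn3 were seen in 7.82% ± 0.96 and 6.18% ± 0.49 of neurons at that depth, and in 1.64% ± 0.72 and 3.98% ± 0.99 of oligodendrocyte-like nuclei. Without thinning, 38.0% and 33.9% of neurons held a UMI of these 2 genes. Microglia-like nuclei, thinned the same way in 3 libraries, held a UMI of Nrxn3 in 40.6% ± 10 and of Nlgn1 in 30.7% ± 7.9 (SD, n = 3). The oligodendrocyte-like share of Nrxn3 was thus no higher than this background, and it was not read as expression.

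**Figure D2:**
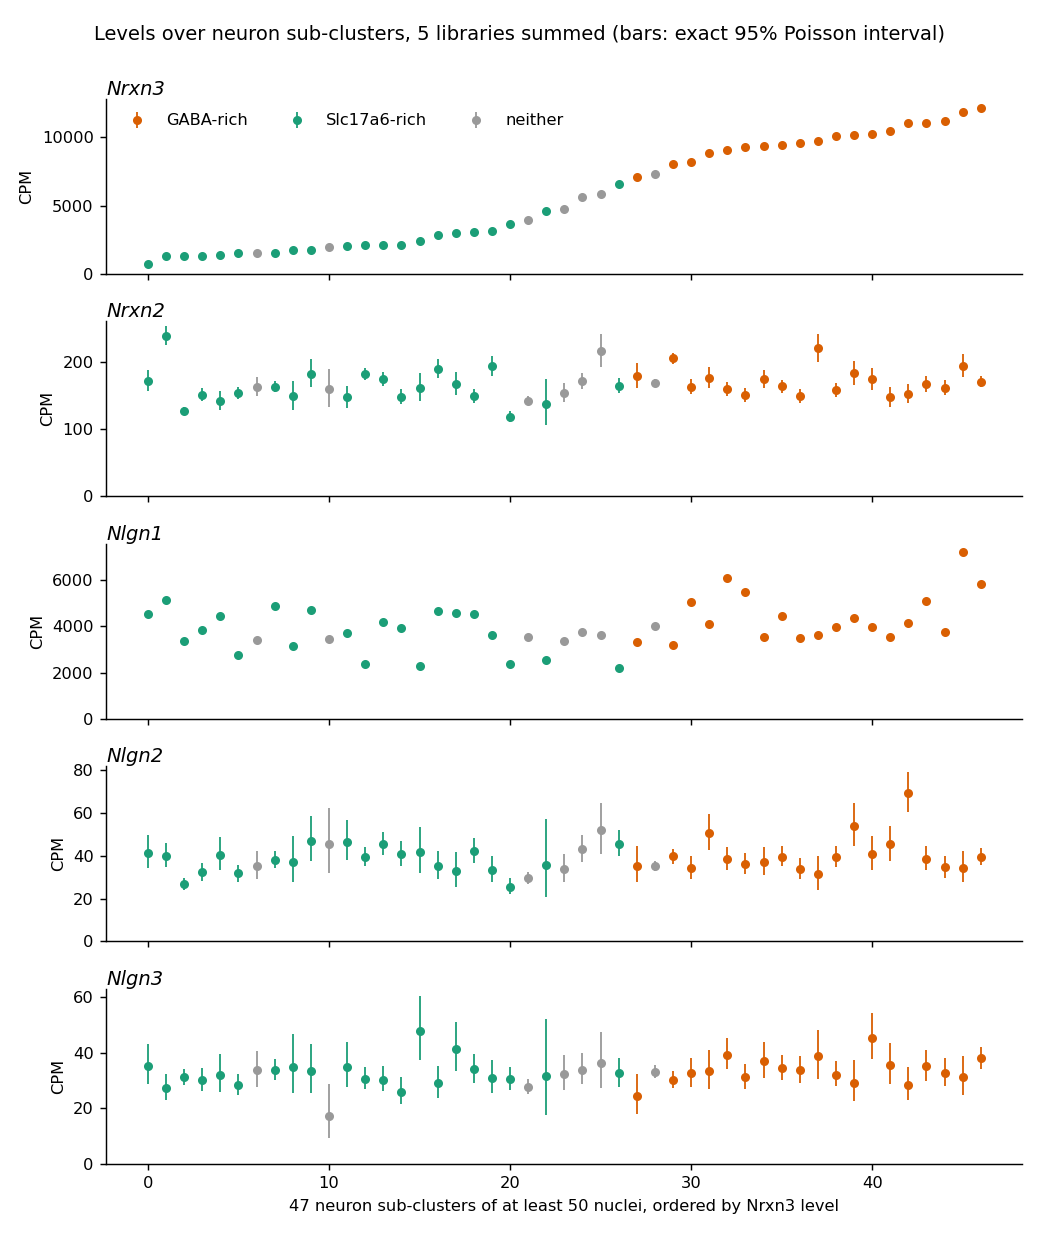
Level of each gene (CPM, linear axes from 0) in 47 neuron sub-clusters ordered by Nrxn3, all libraries summed, with exact 95% Poisson intervals that cover counting error only; colour gives the neuron type. Nrxn3 spans 755 to 12164 CPM, while Nrxn2 spans 118 to 238 CPM over the same sub-clusters.

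Within neurons, Nrxn3 varied most. Over 47 sub-clusters of at least 50 nuclei its highest level was 16.1 times its lowest, against 3.30 times for Nlgn1, 2.79 for Nlgn3, 2.71 for Nlgn2 and 2.01 for Nrxn2. Nrxn3 ran from 7112 to 12164 CPM over the 19 GABA-rich sub-clusters and from 755 to 6538 CPM over the 21 Slc17a6-rich ones, so the types did not overlap in the summed data. Library by library, an Slc17a6-rich sub-cluster rose above the lowest GABA-rich one in the saline library (7267 against 6562 CPM) and in CNO library 2 (6915 against 6822 CPM), 1 sub-cluster each time. In both it was the sub-cluster led by Tns1, Agtr1a (an angiotensin receptor) and Gm30373.

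The orders of sub-clusters that follow come from sums over libraries, which weight the libraries unequally, and cover the 47 sub-clusters of at least 50 nuclei. A sub-cluster of 37 nuclei, all from CNO library 2, led by Slc6a3, the dopamine transporter gene, Ntn1 and Bnc2 had 13992 CPM of Nrxn3. Another of 43 nuclei, 20 of them from CNO library 2, led by A2m, Ccbe1 and Tacr3 had 8299 CPM of Nlgn1. Within the limit of 50, the sub-clusters with the most Nrxn3 were GABA-rich and led by Moxd1, Greb1 and Lhx6 (12164 CPM), by Cyp19a1, which encodes aromatase, Qrfpr and Gm38505 (11821 CPM), and by Piezo2, Synpr and St18 (11149 CPM). The Moxd1 sub-cluster was highest in 2 of the 4 libraries with at least 20 of its nuclei. The least Nrxn3 was found in the Slc17a6-rich sub-cluster led by the vasopressin gene Avp, Pla2r1 and Caprin2 (755 CPM). It was the lowest in the saline and VPA libraries but not in the hM3 control (1129 CPM, with a lowest value of 988 CPM) or CNO 2 (1287 CPM, with a lowest value of 1266 CPM). Next came those led by Megf11, Nr5a1 and Gpr149 (1292 CPM), where Nr5a1 marks the ventromedial hypothalamus, and by Adgrg6, Prkch and Synpo2 (1302 CPM). In the same sums the Megf11 sub-cluster, low in Nrxn3, had the highest Nrxn2 (238 CPM), followed by those led by Eepd1, Pvalb and Kcnmb2 (219 CPM) and by Gm42418, Lars2 and Syt2 (215 CPM). Of the 303 Megf11 nuclei, 174 came from CNO library 1, where Nrxn2 in neurons was highest. The Megf11 sub-cluster was highest in CNO library 1 (253 CPM), while in the VPA library the highest value was 188 CPM in a GABA-rich sub-cluster led by Pde11a, Pappa and Esr1. The lowest Nrxn2 levels were in the sub-clusters led by Prkcd, Abhd12b and Lef1 (118 CPM), by Adgrg6, Prkch and Synpo2 (127 CPM) and by Ebf2, 4930438E09Rik and Postn (137 CPM).

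Nlgn1 was highest in GABA-rich sub-clusters, at 7206 CPM in that led by Cyp19a1, 6079 CPM in that led by Gm45194, Mamdc2 and Nr4a2, and 5821 CPM in that led by Moxd1. The Cyp19a1 sub-cluster was the highest in each of the 4 libraries with at least 20 of its nuclei. It was lowest in Sim1-rich and OT-like ones, at 2184 CPM in the Tns1 sub-cluster, 2294 CPM in that led by Egfr, Ppp1r17 and Agtr1a, and 2356 CPM in the OT-like one led by Esr2, Foxp2 and Reln. The Tns1 sub-cluster was lowest in 2 of 4 libraries, and the lowest of CNO library 2 was the Esr2-led one. Nlgn2 peaked at 69.1 CPM (95% Poisson interval 60.3 to 78.9, 219 UMIs) in the GABA-rich sub-cluster led by 9330185C12Rik, Prr5l and Cdc14a. It then read 54.0 CPM in that led by Atp8b1, Acss3 and the galanin gene Gal and 51.8 CPM in the Gm42418 sub-cluster, and was lowest in sub-clusters led by Prkcd (25.5 CPM), by Adgrg6, Prkch and Synpo2 (26.8 CPM) and by Adgrg6, Prkch and Gm29478 (29.5 CPM). The 9330185C12Rik sub-cluster was highest in 2 of 3 libraries, with 202 of its nuclei from the VPA library, and the Prkcd-led one was lowest in 0 of 3. Nlgn3 read 47.9 CPM in the Egfr sub-cluster, 45.4 in that led by Lhx1os, Eya1 and Lhx1 and 41.4 in that led by Aox3, Ebf3 and Sema3c. Its lowest levels included 17.2 CPM in the sub-cluster led by the orexin gene Hcrt, Rfx4 and Ros1 (14 UMIs, interval 9.38 to 28.8) and 25.9 CPM in the OT-like one led by Oxt, Myocd and Adamts12. The Egfr sub-cluster was the highest in 1 of 3 libraries, the saline one, at 56.5 CPM. With counts this low, neighbours in the order of Nlgn2 and Nlgn3 had overlapping intervals.

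The OT-like sub-clusters differed from each other in Nlgn1. The one led by Esr2, Foxp2 and Reln had 2356 CPM of Nlgn1 and 2101 CPM of Nrxn3 over 525 nuclei. The one led by Oxt, Myocd and Adamts12 had 3932 CPM of Nlgn1 and 2123 CPM of Nrxn3 over 279 nuclei. For Nlgn1 the order held in each library with at least 20 nuclei of both, with 2204 against 4281 CPM in the saline, 2667 against 4087 in the VPA, 2390 against 3893 in the hM3 control and 2288 against 3636 CPM in the CNO 2 library. Nrxn3 had no common order, with 1913 against 1818 CPM in the saline and 2219 against 1603 in the VPA library, but 2220 against 2375 in the hM3 control and 2226 against 2501 CPM in the CNO 2 library.

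Over 56 neuron sub-clusters and glial classes, the genes with levels most like Nrxn3, among 8896 genes, were the GABA synthesis enzymes Gad1 (Pearson r = 0.869) and Gad2 (0.857) and the interneuron transcript Dlx6os1 (0.824). Over the 47 neuron sub-clusters alone they had r = 0.914, 0.890 and 0.878. Nlgn1 was most like Grik5, a kainate receptor subunit (0.846), Slc25a23 (0.831) and Lmtk3 (0.826). The closest to Nrxn2 were Cacng7 (0.817), Slc22a17 (0.792) and Cspg5 (0.791), the closest to Nlgn2 were Smarca1 (0.769), Nalcn (0.753) and Zkscan2 (0.738), and the closest to Nlgn3 were Wasf3 (0.751), Cntn1 (0.749) and Lrrc4b (0.748). These correlations are descriptions. The points share libraries and depth, and the sub-clusters came from the same nuclei.

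Prenatal VPA was compared with saline within the first experiment, 1 library against 1, and carries no test. Ratios are log2 of (CPM + 10), and a gene was called where the absolute log2 ratio reached 0.5. Among all neurons 111 of 8885 genes, 1.25%, passed that size and none of the members did. Nrxn3 read 5163 CPM in the saline and 6402 CPM in the VPA library (log2 ratio 0.31), Nlgn1 3959 and 4505 CPM (0.19), and Nlgn2 33.8 and 40.5 CPM (0.21). Nrxn2 and Nlgn3 had ratios of -0.04 each.

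The Nrxn3 ratio over all neurons was not found inside the neuron types. Nrxn3 had a ratio of 0.02 in GABA-rich neurons (10211 and 10344 CPM) and 0.05 in Slc17a6-rich neurons (2045 and 2117 CPM), and -0.01 when each sub-cluster had equal weight. GABA-rich nuclei made up 38.6% of neurons in the saline and 54.3% in the VPA library. Over 38 sub-clusters with at least 20 nuclei in both libraries, Nrxn3 was higher in 19 and lower in 19. The VPA library was sequenced to fewer UMIs per nucleus (median 5451 against 11068).

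Nlgn1 lay on the same side in each neuron group. It was higher in the VPA library in GABA-rich (0.10), Slc17a6-rich (0.22), OT-like (0.23), other Sim1-rich (0.18), thalamus-like (0.17) and other Slc17a6-rich neurons (0.17), and in 25 of 38 sub-clusters with a median ratio of 0.05. None of these reached 0.5. For comparison, the median ratio of all genes in the sums over neurons was 0.05, and 35.9% of them were lower in the VPA library. The ratio was -0.03 in astrocyte-like and -0.17 in oligodendrocyte-like nuclei.

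Nlgn2 was higher in 27 of 38 sub-clusters (median ratio 0.14), while 35.9% of all genes were lower in the sums over neurons. In OT-like neurons it read 32.7 CPM in the saline and 47.4 CPM in the VPA library, a ratio of 0.43 and, without the added 10 CPM, of 0.54 (95% counting interval 0.18 to 0.89). That was the largest member ratio in OT-like neurons, where 2.50% of genes were called and no member was. The other OT-like ratios were 0.23 for Nlgn1, 0.08 for Nrxn3, 0.05 for Nlgn3 and -0.04 for Nrxn2. No member was called in GABA-rich (0.901% of genes), Slc17a6-rich (1.97%), other Sim1-rich (1.31%), thalamus-like (4.32%) or other Slc17a6-rich neurons (2.27%).

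A few sub-clusters had larger ratios. They were chosen here after their values were seen. In the Avp-led sub-cluster the Nrxn3 level was 727 CPM in the saline library (63 nuclei, 615 UMIs) and 222 CPM in the VPA library (100 nuclei, 153 UMIs), a ratio of -1.67, where 16% of genes were called. In the second experiment, where all mice had VPA before birth, the same sub-cluster read 1129 CPM in the hM3 control and 1287 CPM in the CNO 2 library. CNO library 1 held 11 of these nuclei and was left out. The experiments differ in genotype, AAV and age, and the part of VPA in the low value was not tested. Nrxn3 was higher with a ratio of 0.73 in the sub-cluster led by Rxfp2, Col12a1 and Hhip (1366 and 2275 CPM), where 18.2% of genes were called, and 0.54 in that led by E130114P18Rik, 6530403H02Rik and Nfib (2769 and 4036 CPM), where 12.9% were. Nlgn2 passed 0.5 in 2 GABA-rich sub-clusters, where 12.2% and 16.9% of genes were called, and Nlgn3 in 1, where 19.8% were, all higher in the VPA library.

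In glia, 2 member ratios were called in classes of at least 100 nuclei per library. In oligodendrocyte-like nuclei, where 14.5% of genes were called, Nrxn3 read 146 CPM in the saline and 331 CPM in the VPA library (ratio 1.13). The summed neuron markers read 153 and 296 CPM in the same nuclei, and their part in this ratio was not tested. In progenitor-like nuclei, where 18.1% of genes were called, Nlgn2 read 56.4 and 89.7 CPM (ratio 0.59, and 0.67 without the added 10 CPM, 95% counting interval 0.08 to 1.28). No member was called in astrocyte-like nuclei (6.24% of genes), where Nlgn3 read 51.7 and 60.6 CPM. In the smallest classes, where 31.1% (committed progenitor-like), 43.3% (microglia-like) and 54.0% (endothelial-like) of genes were called, 3, 3 and 4 members were called, from sums of 20 to 136 nuclei per library.

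Partner genes gave no VPA call in neurons, 0 of 35 tested, where 1.25% of all genes were called. Their median ratio was -0.02 against 0.05 for all genes. In astrocyte-like nuclei, where 6.24% of genes were called, Khdrbs2 (0.77), Lrrtm4 (0.57) and Clstn2 (0.51) were called higher and Igsf21 (-0.51) lower, of 30 tested. The summed neuron markers read 199.9 and 333 CPM in these nuclei of the saline and VPA libraries. In oligodendrocyte-like nuclei, where 14.5% of genes were called, 6 of 30 were, all higher, led by the latrophilin Adgrl1 (0.92) and Clstn1 (0.88). The neuron markers read 153 and 296 CPM there, and their part in the calls of both classes was not tested. In progenitor-like nuclei, where 18.1% of genes were called, 3 of 37 were. Mdga1 (0.72) was among those called higher and Adgrl2 (-0.61) was called lower.

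**Figure D3:**
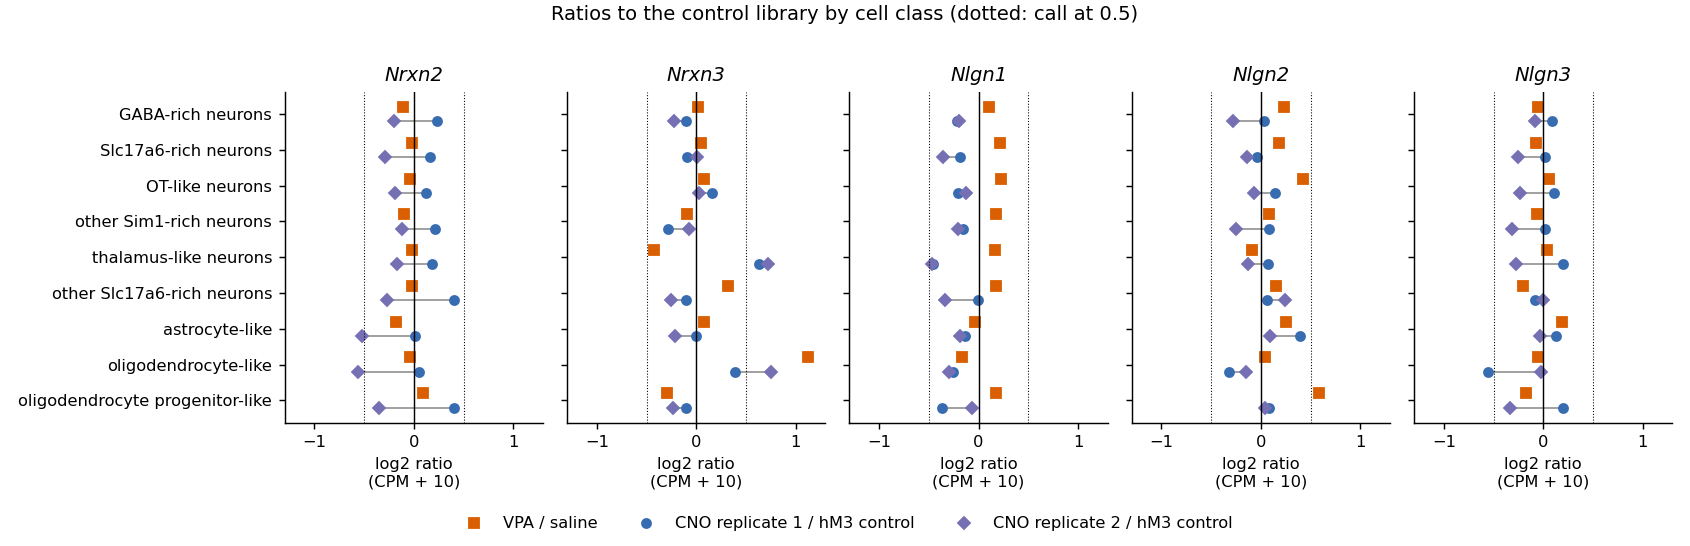
Log2 ratio of (CPM + 10) to the control library for each gene in 9 cell classes; squares give VPA over saline, circles and diamonds the CNO libraries over the hM3 control, and dotted lines mark a ratio of 0.5. Nlgn1 lies left of 0 for both CNO libraries in each class shown, and Nrxn3 in thalamus-like neurons lies at 0.63 and 0.73.

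Neonatal CNO was compared with its hM3 control within the second experiment, 2 libraries against 1. The smallest exact permutation p of that design is 0.333, so no test was made, and a gene was called only where both CNO libraries passed a ratio of 0.5 in the same direction. In neurons 67 of 9200 genes, 0.728%, were called and no member was. Nlgn1 read 4210 CPM in the hM3 control, 3589 in CNO library 1 and 3377 in CNO library 2, both below the control with ratios of -0.23 and -0.32. Nrxn3 read 6266, 5784 and 4592 CPM (-0.12 and -0.45). Within GABA-rich neurons, whose share of neurons was 49.5%, 46.4% and 18.5%, the Nrxn3 ratios were -0.10 and -0.23, and within Slc17a6-rich neurons -0.09 and 0.01.

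Nlgn1 was lower in both CNO libraries in each neuron group, in astrocytes, in oligodendrocytes and in progenitors, by less than the size called. Its ratios were -0.22 and -0.20 in GABA-rich, -0.19 and -0.35 in Slc17a6-rich, -0.21 and -0.12 in OT-like and -0.16 and -0.20 in other Sim1-rich neurons. In thalamus-like neurons, whose make-up by sub-cluster shifted between the libraries, they were -0.46 and -0.47, and with TMM scaling -0.51 and -0.56, past the size called. In other Slc17a6-rich neurons the pair was -0.00 and -0.34. Astrocyte-like (-0.13 and -0.19), oligodendrocyte-like (-0.25 and -0.30) and progenitor-like nuclei (-0.36 and -0.07) had the same sign. Of 18 sub-clusters with at least 20 nuclei in each library, Nlgn1 was lower in both CNO libraries in 18, with a median ratio of -0.26 and single ratios from -0.57 to -0.00.

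**Figure D4:**
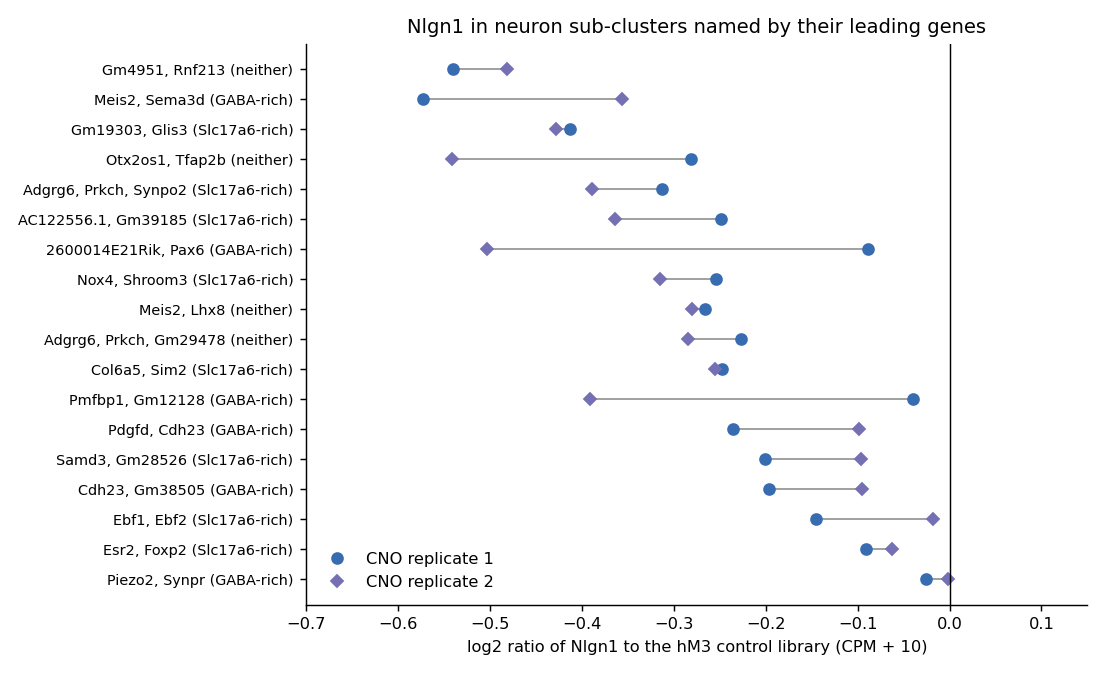
Log2 ratio of Nlgn1 (CPM + 10) in each CNO library to the hM3 control in 18 neuron sub-clusters, each named by its leading genes with its neuron type, and ordered by the mean of the pair. All points lie at or left of 0, between -0.57 and -0.00, and the symbols of the CNO libraries are joined by a line.

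Nlgn1 is a long gene, and in neurons the median long gene was lower too. The 218 genes of at least 500 kb tested in neurons had median ratios of -0.10 in CNO library 1 and -0.09 in CNO library 2, against 0.05 and -0.02 for all genes. In GABA-rich neurons these medians were -0.10 and -0.12 against 0.07 and 0.02. In glia the long-gene medians were -0.05 and -0.07 in astrocyte-like and -0.13 and -0.15 in progenitor-like nuclei. Oligodendrocyte-like nuclei differed, with long-gene medians of 0.07 and 0.38 beside the negative Nlgn1 ratios given above. The part of gene length in the Nlgn1 ratios was not tested. With a single control library, a high control value and a low CNO value cannot be told apart.

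Nrxn3 was lower in both CNO libraries in 6 of 6 GABA-rich sub-clusters and in 11 of 18 in all, and higher in both in 2. These sub-clusters share the same control library, and Nrxn3 is a long gene as well. In GABA-rich neurons 75.2% and 70.2% of genes of at least 500 kb were lower in CNO libraries 1 and 2. Of all genes there, 30.9% and 47.3% were lower. The part of gene length in the Nrxn3 ratios was not tested. Nrxn2, Nlgn2 and Nlgn3 did not have a common side. Nrxn2 lay on opposite sides of the control in neurons (171 CPM in the control, 195 and 137 in the CNO libraries, ratios 0.18 and -0.30), as it did in GABA-rich (0.24 and -0.20), Slc17a6-rich (0.17 and -0.29) and OT-like neurons (0.12 and -0.19) and in progenitor-like nuclei (0.40 and -0.35). Nlgn2 read 38.7 CPM in the control and 38.5 and 32.6 CPM in the CNO libraries, and Nlgn3 32.9, 34.1 and 26.5 CPM. For these 3 genes the gap between the CNO libraries was about as wide as the gap to the control, or wider. In OT-like neurons, 131 nuclei in the control and 38 and 113 in the CNO libraries, no member was called among 1.78% of genes. Nrxn3 there read 2294, 2557 and 2340 CPM (0.16 and 0.03). No member was called in GABA-rich (0.465% of genes), Slc17a6-rich (2.13%), other Sim1-rich (0.840%) or other Slc17a6-rich neurons (0.703%).

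Nrxn3 was the only member called among neuron groups, in thalamus-like neurons, where 3.75% of genes were. It read 1602 CPM in the hM3 control and 2481 and 2654 CPM in the CNO libraries (ratios 0.63 and 0.73). This class has 2 sub-clusters, and inside each the level was near or below the control. In the one led by Adgrg6, Prkch and Synpo2, Nrxn3 read 1288 CPM in the control and 1277 and 1295 CPM in the CNO libraries, beside 1330 in the saline and 1277 in the VPA library. In the one led by Prkcd, Abhd12b and Lef1 it read 3859 CPM in the control, where 11 nuclei were found, and 3518 and 3439 CPM in the CNO libraries. The Prkcd-led sub-cluster made up 11.2% of thalamus-like nuclei in the hM3 control and 47.3% and 56.9% in the CNO libraries, and 13.3% in the saline and 1.16% in the VPA library. With equal weight for each sub-cluster the ratio was -0.11.

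**Figure D5:**
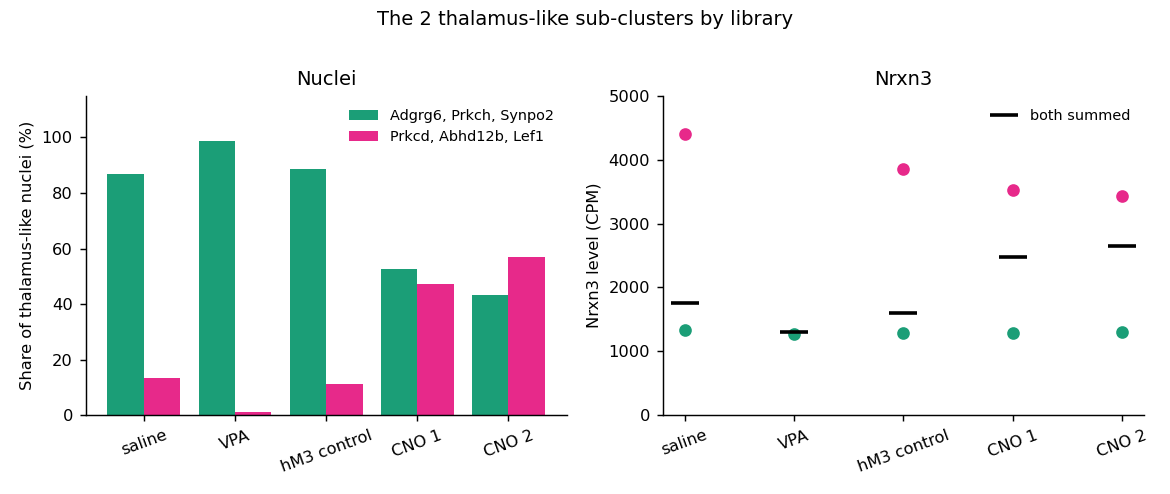
Left, share of thalamus-like nuclei in each of the 2 sub-clusters by library (bars from 0); right, Nrxn3 level (CPM) in each sub-cluster with at least 10 nuclei and, as a dash, over both. The Prkcd-led sub-cluster holds 47.3% and 56.9% of these nuclei in the CNO libraries against 11.2% in the hM3 control, while Nrxn3 in the Adgrg6-led one stays between 1277 and 1330 CPM in all 5 libraries.

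Nlgn1, in contrast, was lower with CNO inside both thalamus-like sub-clusters, by less than over the class. In the Adgrg6-led one it read 3719 CPM in the hM3 control and 2993 and 2837 CPM in the CNO libraries, beside 3466 in the saline and 3721 in the VPA library. In the Prkcd-led one it read 2750 CPM in the 11 nuclei of the control and 2306 and 2451 CPM in the CNO libraries. The share of the Prkcd-led sub-cluster, which had less Nlgn1, moved with the ratio of the class.

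In glia no member was called in astrocyte-like (2.60% of genes), oligodendrocyte-like (3.82%) or progenitor-like nuclei (6.20%). The widest ratios were those of Nrxn3 in oligodendrocyte-like nuclei, at 190 CPM in the control and 252 and 326 CPM in the CNO libraries (0.39 and 0.75). Within the cluster led by Anln, which held most of these nuclei, Nrxn3 read 208, 233 and 350 CPM. Within that led by Iigp1, of 52, 51 and 55 nuclei, it read 98.8, 534 and 151 CPM. The summed neuron markers of the class were also higher, at 141, 219 and 375 CPM, and their part was not tested. In astrocyte-like nuclei Nrxn2 read 178, 180 and 121 CPM, close to the control in 1 CNO library and lower in the other. The make-up of this class shifted. The cluster led by Apoe, Agt and Ntsr2 held 32.4% of astrocyte-like nuclei in the hM3 control, 54.3% in CNO library 1 and 94.0% in CNO library 2, and the cluster led by Itih3, Etnppl and Atp13a4 held the rest. Within the Apoe-led cluster Nrxn2 read 190, 200 and 120 CPM, and within the Itih3-led one 171, 154 and 127 CPM. Microglia-like nuclei, with 24.2% of genes called and 25 nuclei in CNO library 1, had 1 member called, Nlgn1 (193, 1030 and 305 CPM). The neuron markers read 213, 977 and 351 CPM there.

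Of the partner genes 0 of 35 were called in neurons with CNO, where 0.728% of all genes were. Their median ratio was -0.09 against 0.03 for all genes. In thalamus-like neurons, where 3.75% of all genes were called, Car10 was called. It read 2514 CPM in the hM3 control and 1643 and 1433 CPM in the CNO libraries (-0.61 and -0.81). Inside the Adgrg6-led sub-cluster it read 2643 CPM in the control and 2333 and 2232 CPM with CNO. Inside the Prkcd-led one it read 1586 CPM in the 11 nuclei of the control and 1049 and 972 CPM with CNO. In astrocyte-like nuclei, where 2.6% of all genes were called and whose clusters shifted as given above, Nxph1 was called (0.61 and 0.74). It read 29.3, 53.4 and 47.3 CPM in the Apoe-led cluster of the hM3 control, CNO 1 and CNO 2 libraries and 20.6, 26.5 and 31.6 CPM in the Itih3-led one. The summed neuron markers of the class read 235, 300 and 376 CPM in the same order. The call in oligodendrocyte-like nuclei, where 3.82% of all genes were called, was Lrrtm3 (0.56 and 1.10), a leucine-rich repeat ligand of neurexins. The neuron markers read 141, 219 and 375 CPM there, and their part in either call was not tested.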

How the data were processed

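The authors deposited filtered matrices of raw UMI counts per gene and nucleus for 5 libraries, made with Cell Ranger 7.0.1 on mm10 per the submitters' processing notes. Whether intronic reads were counted, and whether by strand, is not given in the sources used here. Replicates are libraries of pooled mice. With library as a block, p-values measure how the class difference within a library varies over libraries, and not the spread between mice. The members, the list of 45 partner genes and the tests were chosen with earlier results of these data known.

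Nuclei of 1000 UMIs or more with a mitochondrial share of up to 5% were kept. Scrublet (scanpy 1.11.5) called 1 to 159 doublets per library by its automatic threshold, far apart between libraries, so the top-scoring 0.8% per 1000 nuclei were removed instead. Clustering used 2000 variable genes without the members, the partners, Oxt, Avp and Cre, 30 principal components, 20 neighbours (edges with at least 2 shared) and Leiden (leidenalg 0.10.2) at resolution 1, and at resolution 2 for neurons. Naming thresholds were set after the clusters had been seen. Clusters rich in markers of more than 1 class were set aside as mixed, 0.356% to 12.3% of nuclei per library and 12.3% in CNO library 2.

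Counts were summed per class and library (at least 20 nuclei) and tested with edgeR 4.0.16 in R 4.3.3 (TMM scaling, low counts filtered by filterByExpr, quasi-likelihood F-test, Benjamini-Hochberg adjustment over all genes, threshold 0.05), with library as a block because both sums of a library come from the same pooled mice. DESeq2 1.42.0 was an alternative. Treatment ratios used CPM + 10 and genes of at least 10 CPM on average. Intervals are exact Poisson or binomial at 95% and cover counting error only. Scripts ran in Python 3.11.15 (numpy 2.4.6, scipy 1.17.1, pandas 2.3.3) and were tested on simulated data.

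The members were all described. A partner gene was named where it passed the call, at most 8 in each direction by size, and, for each member, the 3 genes most like it and the 3 highest and 3 lowest sub-clusters were named, except for a few items that are not reported here. Alternatives were no block, no filter, DESeq2, TMM for the ratios, other pseudocounts and call sizes, other UMI limits, doublets kept, another clustering resolution, equal weight per sub-cluster, and leaving out each library.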

Additional observations from a re-analysis of the deposited data

Results flagged for a closer look

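Nrxn3 in the CNO libraries lay on opposite sides of the hM3 control in different cell classes. In thalamus-like neurons the log2 ratios to the hM3 control were 0.63 and 0.73 (mean 0.68) and in other Sim1-rich neurons -0.29 and -0.08 (mean -0.18), a difference of 0.86. It was picked out because both libraries of one class lay above the control and both of the other below it. This was looked for in the 8 classes with at least 50 nuclei in each of these libraries, which are the GABA-rich, Slc17a6-rich, other Sim1-rich, thalamus-like, other Slc17a6-rich, astrocyte-like, oligodendrocyte-like and progenitor-like ones. Nrxn3 was higher in both CNO libraries in 2 of them and lower in 5. Besides the thalamus-like class, the higher one was the oligodendrocyte-like class, where the share of nuclei with Nrxn3 was not read as expression. OT-like neurons, with 38 nuclei in CNO library 1, were not among the 8 classes and had 0.16 and 0.03. The difference was not tested, and the share of the Prkcd-led sub-cluster among thalamus-like nuclei moved with it, from 11.2% to 47.3% and 56.9%.

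Nlgn2 had ratios of 0.39 and 0.09 in astrocyte-like nuclei (mean 0.25) and -0.32 and -0.15 in oligodendrocyte-like nuclei (mean -0.24), a difference of 0.49. It was higher in both CNO libraries in 3 of the same 8 classes and lower in 2. The cluster led by Apoe, Agt and Ntsr2 held 32.4% of astrocyte-like nuclei in the hM3 control, 54.3% in CNO library 1 and 94.0% in CNO library 2. Nlgn2 read 22.7, 38.0 and 24.5 CPM inside it, and 20.6, 22.7 and 7.91 CPM in the other cluster, led by Itih3. The difference was not tested, and Nlgn2 in oligodendrocyte-like nuclei rested on 77 UMIs over all libraries. A check for outlying libraries needs 4 in a group and could not be made.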

How the results depend on the processing

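Depth, 1 library in 3 of the 4 groups and pooled mice limit these results. Nlgn2, Nlgn3 and the microglia-like and OT-like sums of single libraries are least precise. Under alternatives, 62 values of the neuron type test kept their direction and side of the threshold, 3 lost the call and 1 count changed, and in the glia tests 232 kept both and 8 lost the call. The replicate block, library, decided the number of genes passing the neuron type test, which was 4034 with it and 1472 without. Without the replicate block Nlgn1 in GABA-rich neurons had 0.19 (edgeR, adjusted p = 0.51) and in progenitor-like nuclei 0.74 (edgeR, adjusted p = 0.063). Over the values that leave out 1 library each, Nlgn1 in GABA-rich neurons ran from 0.17 to 0.24 (call lost at 0.17 and 0.18), Nlgn1 in progenitors from 0.60 to 0.75 (lost at 0.60 to 0.70) and Nlgn3 in oligodendrocytes from -0.62 to -0.16 (lost at -0.16). Nlgn1 in progenitors also lost its call at a minimum of 2000 UMIs (0.72) and with doublets kept (0.58). The cause was not tested. No paired analysis was possible because the control arms of the treatment ratios hold 1 library each.

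In the VPA contrast over neurons 111 genes were called, and 988 at a call of 0.25, 7 at 1, 321 with a pseudocount of 1 CPM and 49 with equal weight per sub-cluster. At 0.25, 1 member (Nrxn3) was called. Partner genes called at 0.25 were 1 in neurons, 2 in GABA-rich and 4 in Slc17a6-rich neurons, where TMM gave 2, against 0 at 0.5. In the CNO contrast 67 genes were called, and 553 at 0.25, 8 at 1, 206 with a pseudocount of 1 CPM and 31 with equal weight. CNO library 1 alone gave 172 and CNO library 2 alone 703. Partner genes called at 0.25 were 2, 3 and 5 in the same order. Nrxn3 in thalamus-like neurons turned to -0.11 with equal weight per sub-cluster.

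In neurons and the GABA-rich, Slc17a6-rich, OT-like, thalamus-like, astrocyte-like, oligodendrocyte-like and progenitor-like sums, TMM shifted the log2 ratios by -0.22 (oligodendrocyte-like, CNO library 2) to -0.01. Of the genes called in neurons, 50.5% were higher in the VPA library and 25.8% with TMM. Of those called in GABA-rich neurons with CNO, 95.3% were higher and 63.6% with TMM. The shares of neurons with a UMI were 79.7% for Nrxn2, 97.2% for Nrxn3, 99.5% for Nlgn1, 38.0% for Nlgn2 and 33.9% for Nlgn3 without thinning, and 15.4%, 83.1%, 92.3%, 3.92% and 3.12% at 1000 UMIs.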
